A study of Mus musculus with 4 samples.

Results

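The genes described here are the subunits and feedback inhibitors of NF-kB: Nfkbia, Nfkbib, Nfkbie, Nfkbiz, Tnfaip3, Nfkb1, Nfkb2, Rela and Relb. These 9 genes were taken by name from the 31053 genes in the deposited count matrices, and all 9 were found. Single mammary epithelial cells from the fourth glands of FVB mice were profiled at postnatal week 9 by 10x Chromium 3′ sequencing, in which each captured transcript is counted by a molecular identifier (UMI). Every mouse was homozygous for a floxed Tfap2c gene (Tfap2c fl/fl) and carried Krt5-CreERT2, a Cre recombinase that is made under the Krt5 promoter and becomes active with 4-hydroxytamoxifen (4OHT). Injections were given daily from week 4, as corn oil in 2 mice (the vehicle group) and as 4OHT in 2 mice, for 5 days by one label and for a week by another. All 4 mice carried both the floxed alleles and Cre. The Krt5 promoter drives Cre mainly in basal cells, so luminal cells are not its direct target. The study addressed the role of Tfap2c (AP-2γ) in mammary stem cells.

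NF-kB is a family of dimeric transcription factors. Rela and Relb carry a transactivation domain, while Nfkb1 and Nfkb2 encode the precursors p105 and p100, which are cut to p50 and p52. The IkB proteins encoded by Nfkbia, Nfkbib and Nfkbie hold the dimers in the cytoplasm until IkB kinase marks them for degradation. Several of these genes are themselves NF-kB targets, so that activation raises the mRNA of its own inhibitors: Nfkbia is the best known, and Tnfaip3 encodes A20, a ubiquitin-editing enzyme that dampens signalling from TNF and Toll-like receptors. Nfkbiz encodes IkB-zeta, a nuclear IkB protein that acts as a co-regulator of a subset of targets. In the mammary gland, RANK signals through NF-kB during alveolar development.

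Cells with at least 1000 UMIs were placed in classes by raw keratin and marker counts that included none of the 9 genes. Basal cells had at least 5 UMIs of Krt5, Krt14, Krt17 and Acta2 together and more than 3 times the UMIs of Krt8, Krt18 and Krt19. Luminal cells met the converse rule and were called hormone-sensing where Ly6d, Fxyd2 and Gpx3 together gave at least 3 UMIs and more than Wfdc18, Csn3 and Ltf, and luminal progenitor otherwise. The classes held 7028 basal, 5629 luminal progenitor and 1168 hormone-sensing luminal cells, and 4007 cells with enough UMIs fell in none. Markers that the rule did not use bore out the names: all 6 basal markers (among them Trp63 and Myh11), all 6 luminal progenitor markers (Elf5 and Kit among them) and all 6 hormone-sensing markers (Esr1 and Pgr among them) were higher in their own class than in the luminal progenitor class or, for the progenitor markers, than in basal cells, at an adjusted p under 0.05 in the edgeR quasi-likelihood test.

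The 4 libraries held between 3546 and 5545 cell barcodes and between 17351950 and 22017878 UMIs, with median depths per cell between 3055 and 5299.5 UMIs. Each pair of libraries shared between 18 and 36 barcodes. The targeted gene, Tfap2c, was not lower in the libraries labelled 4OHT. In basal cells its level was 389 and 285 CPM (UMIs of the gene scaled to a common total of the class in that library) in the corn oil libraries and 285 and 325 CPM in the 4OHT libraries, with a log2 fold change of −0.08 (standard error 0.25, edgeR quasi-likelihood test, Benjamini-Hochberg adjusted p = 0.999). A 3′ count need not show the loss of an internal exon, so all treatment directions below rest on the labels. The mouse was the replicate, with 2 per treatment, and all p-values measure only the spread between these 4 libraries.

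Upstream sequence was examined for the κB element, since feedback through NF-kB runs over such sites in the promoter. RefSeq promoters on GRCm38.p6 were found for 6 of the 9 genes, 9 promoters in all. Both strands of the 250 bases before each start were searched for the NF-kB consensus, a motif of 10 bases. A match was present in 3.90% of the 32851 mouse promoters of the same length, and 0.493% held at least 2. The 3 promoters below are shown because they belong to the most abundant inhibitor, Nfkbia, and are the ones with 2 or more matches, with every matched base in capitals and each sequence 5′ to 3′ on the strand of its gene. They lie at chr12:55492648-55492897 (minus strand, Nfkbia), chr10:19015411-19015660 (minus strand, Tnfaip3) and chr19:46304487-46304736 (plus strand, Nfkb2).

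Nfkbia: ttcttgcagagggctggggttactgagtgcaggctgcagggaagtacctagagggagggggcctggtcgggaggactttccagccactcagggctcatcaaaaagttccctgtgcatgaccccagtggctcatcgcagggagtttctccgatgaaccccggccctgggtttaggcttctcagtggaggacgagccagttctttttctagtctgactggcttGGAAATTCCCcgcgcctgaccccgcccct
Tnfaip3: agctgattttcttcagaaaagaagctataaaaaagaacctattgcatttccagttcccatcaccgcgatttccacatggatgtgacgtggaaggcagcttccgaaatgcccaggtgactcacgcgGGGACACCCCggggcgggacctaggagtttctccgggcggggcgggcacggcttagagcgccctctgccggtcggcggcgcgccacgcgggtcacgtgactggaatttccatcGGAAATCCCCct
Nfkb2: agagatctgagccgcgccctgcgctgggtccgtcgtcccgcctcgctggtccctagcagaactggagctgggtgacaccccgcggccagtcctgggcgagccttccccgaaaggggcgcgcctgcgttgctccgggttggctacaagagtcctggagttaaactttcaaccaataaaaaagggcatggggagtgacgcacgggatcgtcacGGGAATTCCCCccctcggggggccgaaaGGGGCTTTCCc

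The single Nfkbia match, GGAAATTCCC, began 29 bases before the start. Tnfaip3 carried GGGACACCCC at 125 bases and GGAAATCCCC at 12 bases before its start. Nfkb2 carried GGGAATTCCC at 39 bases and GGAATTCCCC at 38 bases, which overlap in all but their outer base, and GGGGCTTTCC at 11 bases. Nfkbie had 1 match, GGGGGATTCC, at 106 bases before the start at chr17:45555450-45555699, whereas the promoters of Nfkbib and Rela held none. Of the further starts, those of Nfkb2 held 1 match each and that of Tnfaip3 none. A match describes the letters in this window and is not evidence of binding.

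Among the inhibitors, Nfkbia was by far the most abundant and differed most between the classes. In luminal progenitor cells it stood at 3882 and 2482 CPM in the corn oil libraries and at 3195 and 3985 CPM in the 4OHT libraries. The basal cells of the same libraries gave 416, 660, 910 and 1005 CPM, and the hormone-sensing cells 631, 1192, 644 and 671 CPM. Every luminal progenitor value thus lay above all 8 values of the other classes, and within a library the progenitor level was between 3.51 and 9.34 times the basal level and between 2.08 and 6.16 times the hormone-sensing level. The gene lies at chr12:55489410-55492647 on the minus strand, and each level is a count per captured 3′ end, so that no length correction was applied.

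**Figure D1:**
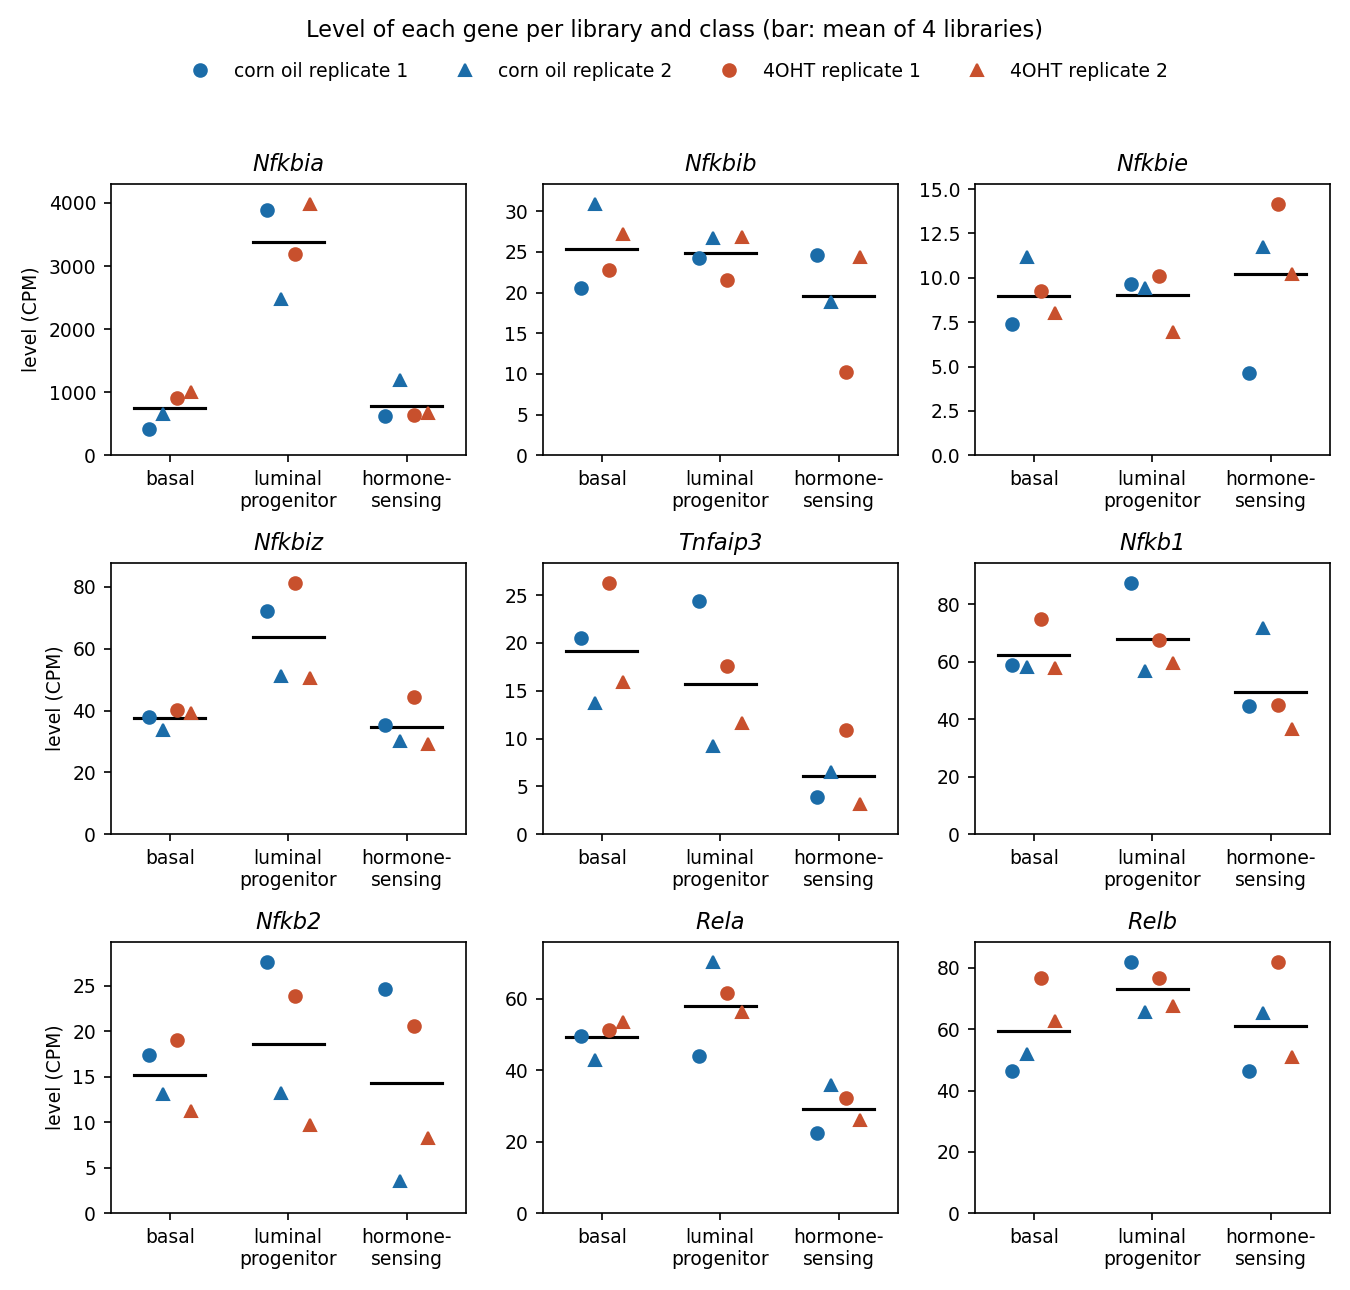
Level of each of the 9 genes in CPM (linear axes starting at 0) in basal, luminal progenitor and hormone-sensing luminal cells, where each point is 1 library, colour gives the treatment, circles and triangles are replicates numbered 1 and 2, and bars are the mean of 4 libraries. Nfkbia stands between 2482 and 3985 CPM in luminal progenitor cells and at most at 1192 CPM elsewhere.

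Basal cells had less Nfkbia than luminal progenitor cells, with a log2 fold change of −2.51 (standard error 0.28, edgeR quasi-likelihood test with library as a block, Benjamini-Hochberg adjusted p = 1.15e-06). Hormone-sensing cells were also lower than luminal progenitor cells, by a log2 fold change of −2.38 (standard error 0.28, edgeR adjusted p = 4.20e-06). Between basal and hormone-sensing cells the log2 fold change was −0.13 (standard error 0.27, edgeR adjusted p = 0.697), which did not pass. Its sign differed between libraries, with basal cells above hormone-sensing cells in 2 of the 4.

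The class difference was also seen as a share of cells. After each cell was thinned to 1000 UMIs, an Nfkbia UMI was found in 68.6%, 60.9%, 67.2% and 69.6% of luminal progenitor cells, in 27.5%, 33.6%, 39.3% and 39.8% of basal cells, and in 30.5%, 42.1%, 25.8% and 25.7% of hormone-sensing cells (corn oil replicates 1 and 2, then 4OHT replicates 1 and 2). No cell was left out at that depth. Without thinning the shares were 85.9 to 88.4%, 59.1 to 66.6% and 57.9 to 75.2%, at median depths of 3473 to 5281.5, 2827.5 to 5152.5 and 4745.5 to 8258 UMIs. Luminal progenitor cells carried a median of 1 or 2 Nfkbia UMIs per 1000 and a maximum of 37 to 49, while the median in the other classes was 0 and the maximum 9 to 23. None of the classes lacks the gene, so the share that free RNA alone would give was not measured.

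Nfkbib and Nfkbie, the other cytoplasmic IkB genes, were low and close to level. Nfkbib stood at 20.5 to 30.9 CPM in basal, 21.5 to 26.9 CPM in luminal progenitor and 10.3 to 24.7 CPM in hormone-sensing cells. It was lower in hormone-sensing than in luminal progenitor cells, with a log2 fold change of −0.62 (standard error 0.20, edgeR adjusted p = 0.0167). That call passed in 7 of 11 alternatives run. It was lost, among others, when class totals were used without TMM factors, with −0.36 and an adjusted p of 0.157 in edgeR. Nfkbib shares its locus, chr7:28758251-28767512, with Sirt2 and Ccer2 on the opposite strand, and since the strand used in counting is not given in the sources used here, its level is uncertain. Nfkbie (chr17:45555703-45563169) had 4.63 to 14.2 CPM over all 12 sums of class and library, from 6 to 85 UMIs each, and passed no class comparison.

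Nfkbiz was also highest in luminal progenitor cells, by a smaller margin than Nfkbia. Its level was 72.2, 51.2, 81.3 and 50.6 CPM in luminal progenitor cells, against 37.8, 33.6, 40.1 and 39.2 CPM in basal and 35.5, 30.0, 44.4 and 29.1 CPM in hormone-sensing cells. The 4 progenitor values all lay above the 8 others. Basal cells were lower by a log2 fold change of −1.004 (standard error 0.15, edgeR adjusted p = 2.25e-05) and hormone-sensing cells by −1.13 (standard error 0.16, edgeR adjusted p = 3.06e-05). The log2 fold change of Nfkbiz between basal and hormone-sensing cells was 0.12 (edgeR adjusted p = 0.54).

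Tnfaip3 was arranged differently, with the low class being the hormone-sensing one. It had 3.85, 6.47, 10.95 and 3.15 CPM there, from only 5, 11, 17 and 8 UMIs, against 20.5, 13.8, 26.3 and 15.9 CPM in basal cells and 24.4, 9.25, 17.6 and 11.6 CPM in luminal progenitor cells. In each library the hormone-sensing value was the lowest of the 3. Basal cells exceeded hormone-sensing cells by a log2 fold change of 1.64 (standard error 0.31, edgeR adjusted p = 0.000218). Hormone-sensing cells were below luminal progenitor cells by a log2 fold change of −1.61 (standard error 0.31, edgeR adjusted p = 0.000466). Basal and luminal progenitor cells were not told apart by the test, at a log2 fold change of 0.03 (standard error 0.22, edgeR adjusted p = 0.906).

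Of the subunits, Rela, the main transactivating partner in the canonical pathway, was lowest in hormone-sensing cells. Its values there were 22.4, 35.9, 32.2 and 26.0 CPM, against 49.6, 42.8, 51.2 and 53.6 CPM in basal and 44.0, 70.4, 61.5 and 56.2 CPM in luminal progenitor cells. No hormone-sensing value reached the lowest value of either other class. The log2 fold change against luminal progenitor cells was −1.24 (standard error 0.17, edgeR adjusted p = 2.09e-05), and basal cells exceeded hormone-sensing cells by 0.76 (standard error 0.17, edgeR adjusted p = 0.00120). Basal cells were lower than luminal progenitor cells by a log2 fold change of −0.48 (standard error 0.15, edgeR adjusted p = 0.0123), a call lost on class totals, at −0.21 with an edgeR adjusted p of 0.262.

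Relb, the transactivating subunit of the non-canonical pathway, had its level at 82.0, 65.8, 76.6 and 67.5 CPM in luminal progenitor, 46.5, 51.8, 76.6 and 62.7 CPM in basal and 46.3, 65.3, 81.8 and 50.8 CPM in hormone-sensing cells. The 3 ranges overlapped. Relb passed as lower than in luminal progenitor cells both in basal cells (log2 fold change −0.59, standard error 0.17, edgeR adjusted p = 0.00636) and in hormone-sensing cells (−0.53, standard error 0.18, edgeR adjusted p = 0.0220). On class totals neither call held, at −0.32 (edgeR adjusted p = 0.0919) and −0.28 (edgeR adjusted p = 0.177). The call in basal cells passed in 10 of 11 alternatives run, and that in hormone-sensing cells in 7 of 11.

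Nfkb1 ranged from 56.8 to 87.4 CPM in luminal progenitor, 57.8 to 74.8 CPM in basal and 36.6 to 71.8 CPM in hormone-sensing cells. Only its difference between hormone-sensing and luminal progenitor cells passed (log2 fold change −0.71, standard error 0.21, edgeR adjusted p = 0.0129), and it did not on class totals (−0.46, edgeR adjusted p = 0.0593). Nfkb2, with 3.53 to 27.7 CPM over the 12 sums, gave a log2 fold change of −0.70 for the same comparison (standard error 0.25, edgeR adjusted p = 0.0326), and −0.44 on class totals (edgeR adjusted p = 0.185). The call passed in 7 of 11 alternatives run for Nfkb1 and in 6 of 11 for Nfkb2. Nfkb2 (chr19:46304320-46312385) overlaps Psd on the opposite strand, so its level too is uncertain.

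Within each class, Nfkb2 separated the libraries by their number rather than by treatment. The libraries numbered 1 had 17.4 and 19.0 CPM in basal, 27.7 and 23.9 CPM in luminal progenitor and 24.7 and 20.6 CPM in hormone-sensing cells (corn oil, then 4OHT). Those numbered 2 had 13.2 and 11.2, 13.2 and 9.66, and 3.53 and 8.27 CPM. Tnfaip3 showed the same order in basal and luminal progenitor cells. The share of all genes that split by number was not counted. Over all genes tested, deviations of same-numbered libraries from their group means correlated at 0.56, 0.32 and 0.22 in basal, luminal progenitor and hormone-sensing cells. The split is therefore not shown to be particular to these 2 genes. The libraries numbered 1 were also the deeper ones within each treatment, with median depths per cell of 5299.5 and 4242 UMIs against 3619 and 3055, and the labels give the number no further meaning. The part of depth in this difference was not tested.

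**Figure D2:**
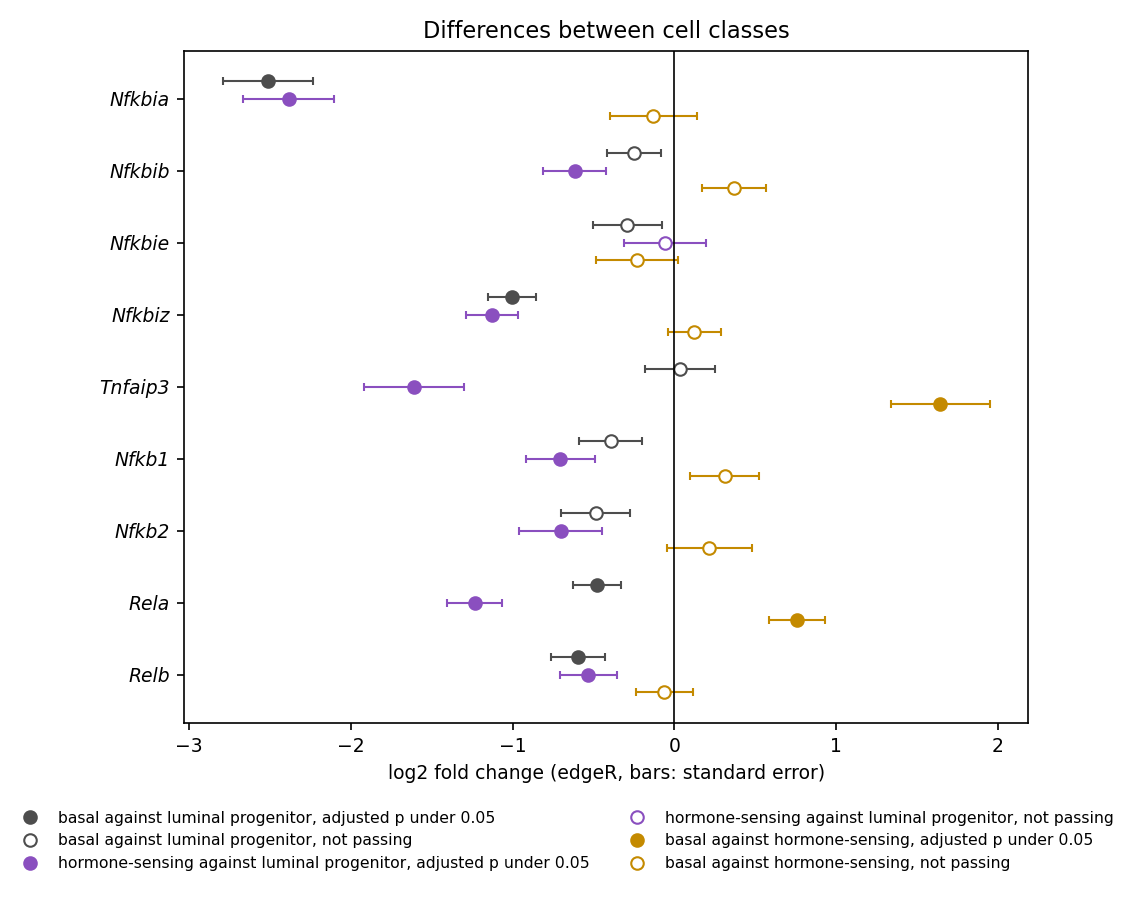
Log2 fold change of each gene between cell classes (x axis, edgeR with library as a block, 12 sums), with bars for the standard error and filled points for an adjusted p under 0.05. Nfkbia is at −2.51 and −2.38 against luminal progenitor cells, and Tnfaip3 and Rela are the 2 genes that differ between basal and hormone-sensing cells.

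Counted together, 4 of the 9 genes were lower in basal than in luminal progenitor cells (Nfkbia, Nfkbiz, Rela and Relb) and none was higher, where 26.6% of the 11135 genes tested were lower and 29.5% higher. In hormone-sensing cells 8 of 9 were lower than in luminal progenitor cells, all but Nfkbie, and none was higher, where 24.6% of all genes were lower and 21.9% higher. Between basal and hormone-sensing cells 2 of 9 were higher in basal cells, where 32.4% of all genes were, and none was lower, where 27.3% were. The median log2 fold change of the 9 genes was −0.48, −0.71 and 0.22 in the 3 comparisons, beside 0.04, −0.02 and 0.08 over all genes tested. Without TMM factors the median of all genes moved by 0.27 in the first and 0.25 in the second comparison, and the share of called genes that were higher went from 52.5% to 69.8% and from 47.1% to 64.0%. On that scale 2 genes (Nfkbia and Nfkbiz) remained lower in basal cells and 4 (Nfkbia, Nfkbiz, Tnfaip3 and Rela) in hormone-sensing cells.

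Leaving out 1 library at a time changed these counts most for hormone-sensing against luminal progenitor cells. There 5 of the 9 genes passed as lower without 4OHT replicate 1 and 4 without 4OHT replicate 2, while Nfkbia, Nfkbiz, Tnfaip3 and Rela passed in all 11 alternatives run. In the hormone-sensing class, 4OHT replicate 1 had summed fibroblast markers of 1346 CPM (6 of 6 detected), against 53.5 to 243 CPM in the other libraries, and summed leukocyte markers of 129 CPM (8 of 10 detected), against 2.31 to 6.47 CPM. In luminal progenitor cells the leukocyte markers summed to between 0.826 and 9.05 CPM, and in basal cells to between 12.9 and 26.8 CPM, with Ptprc, which marks all leukocytes, at 0 in all 4 basal sums. Their part in the differences was not tested.

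Set against the mRNA of the subunits, the mRNA of the inhibitors was in larger excess in luminal progenitor cells. Protein was not measured, so the ratio does not give the strength of inhibition. The UMIs of Nfkbia, Nfkbib and Nfkbie together came to 16.2, 12.2, 14.1 and 20.8 per UMI of Nfkb1, Nfkb2, Rela and Relb in luminal progenitor cells, a mean of 15.8 ± 3.72 (SD, n = 4). The ratio was 2.58, 4.22, 4.25 and 5.61 in basal cells (4.17 ± 1.24) and 4.78, 6.93, 3.72 and 5.80 in hormone-sensing cells (5.31 ± 1.37). All 4 progenitor ratios lay above the highest of the other classes. Nfkbia made up between 93.7% and 99.2% of the inhibitor UMIs in every sum, so the ratio follows that gene, and as a ratio within a sum it does not depend on the scaling.

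**Figure D3:**
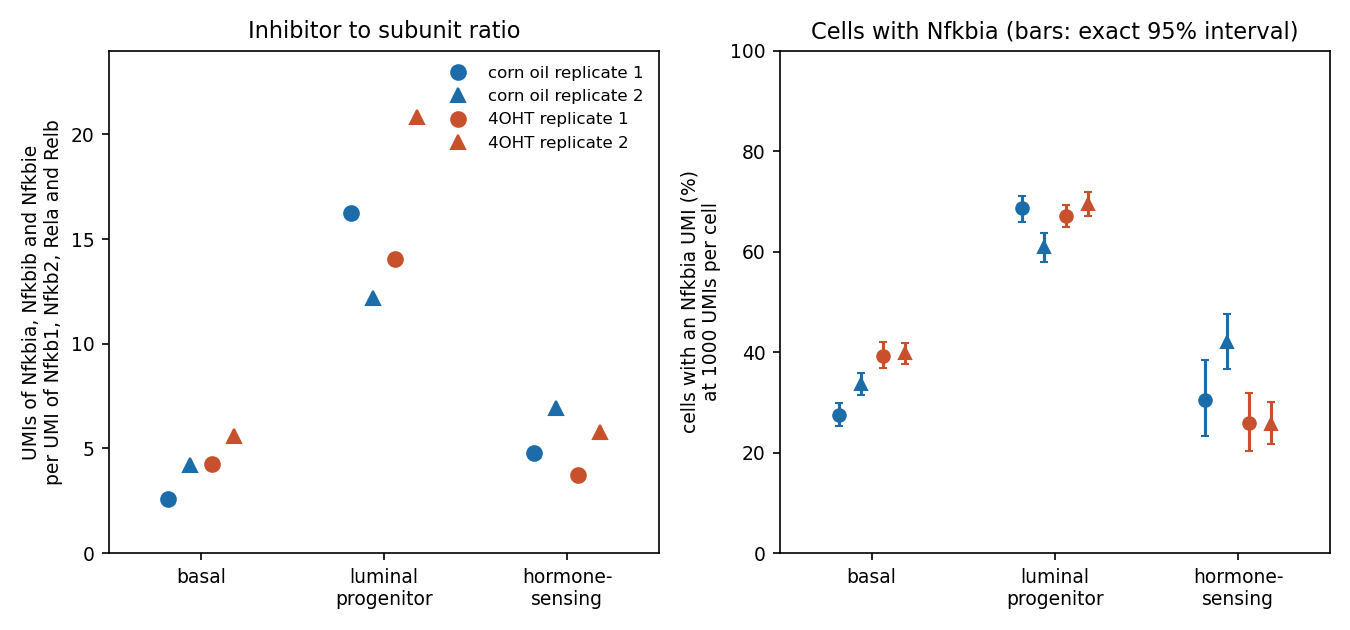
Left, UMIs of Nfkbia, Nfkbib and Nfkbie per UMI of Nfkb1, Nfkb2, Rela and Relb in each library and class, and right, percent of cells with an Nfkbia UMI after thinning to 1000 UMIs per cell, with exact (Clopper-Pearson) 95% intervals that cover counting error only. Luminal progenitor cells lie at ratios of 12.2 to 20.8 and shares of 60.9 to 69.6%, above both other classes.

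Genes known to be driven by NF-kB differed between the classes in both directions. Of 25 listed targets that could be tested, 15 were lower and 7 higher in basal than in luminal progenitor cells. The lower ones included the chemokine Ccl5 (log2 fold change −2.83), Ier5 (−2.32), the iron-binding protein gene Lcn2 (−1.95) and Gadd45b (−1.89), whereas the adhesion molecule genes Vcam1 (4.93) and Icam1 (0.88) were higher in basal cells, as were the chemokines Ccl7 (2.48) and Ccl2 (1.83). Hormone-sensing cells had 17 targets lower and 4 higher than luminal progenitor cells, with Ptgs2 (−5.88) and Lcn2 (−5.20) the lowest. Basal cells had 15 higher and 4 lower than hormone-sensing cells. Of all genes tested, 26.6% were lower and 29.5% higher in the first comparison, and 24.6% and 21.9% in the second. In the third, 32.4% were higher in basal cells and 27.3% lower. The summed level of the 30 targets was 7697 to 12494 CPM in luminal progenitor, 4496 to 5732 CPM in basal and 1365 to 2199 CPM in hormone-sensing cells, so that the classes did not overlap.

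Upstream genes were less uniform. Among receptors, Cd14, the co-receptor for lipopolysaccharide, was lower than in luminal progenitor cells in both basal (log2 fold change −5.78) and hormone-sensing cells (−4.80), and it is also 1 of the 6 progenitor markers, while Tnfrsf1a, the main TNF receptor, was higher in both (1.296 and 0.50). In all, 4 of 10 receptors tested were higher and 4 lower in basal than in luminal progenitor cells, and 2 were higher and 5 lower in hormone-sensing cells. Of 21 kinases and adaptors tested, 3 were higher and 5 lower in basal cells, and 4 higher and 2 lower in hormone-sensing cells. The IkB kinase gene Ikbkb was lower in both (log2 fold change −0.68 and −0.58). Of 12 other regulators of the pathway, 6 were lower in basal cells and none higher, and 5 were lower and 1 higher in hormone-sensing cells. Among them Birc3, which encodes the ubiquitin ligase cIAP2, was lower in both (−0.84 and −1.85). Of 3 ligands that could be tested, 2 were lower in each. Of all genes tested, 29.5% were higher and 26.6% lower in basal than in luminal progenitor cells. The shares were 21.9% and 24.6% in hormone-sensing cells. Kinases and adaptors lay below these shares in both directions, some only slightly, and the difference was not tested.

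Of the 4 further family members, Rel, the c-Rel subunit, was lower in hormone-sensing than in luminal progenitor cells (log2 fold change −1.05, edgeR adjusted p = 0.00922), the same direction as Rela. Nfkbil1 was lower in basal cells (−0.51, edgeR adjusted p = 0.0241). Nfkbid, which encodes a nuclear IkB protein, was lower in basal than in luminal progenitor cells (−1.27, edgeR adjusted p = 0.0198), and Bcl3 passed neither comparison. Rel and Nfkbid have means under 20 CPM and were named after their values were seen.

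Genes that respond to handling of cells were counted beside these results. Of 25 immediate early and stress genes, 19 were lower and 1 higher in hormone-sensing than in luminal progenitor cells. Of all genes tested, 24.6% were lower and 21.9% higher. In basal cells 7 of the 25 were lower and 8 higher, where 26.6% and 29.5% of all genes were. The summed level of the 25 genes was 12020 to 21734 CPM in luminal progenitor, 13164 to 18317 CPM in basal and 5509 to 11450 CPM in hormone-sensing cells. These sums were lower in hormone-sensing than in luminal progenitor cells without overlap, and those of basal and luminal progenitor cells overlapped. Their part in the differences of the 9 genes was not tested.

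In basal and luminal progenitor cells, an Nfkbia UMI and a UMI of several other members occurred in the same cell more often than independent detection would give. After thinning to 1000 UMIs, 74 basal cells had both Nfkbia and Tnfaip3, where independent detection within each library would give 45.6, and the ratio was between 1.53 and 1.70 in the 4 libraries. For Nfkbia with Relb the counts were 183 observed and 135 expected in basal cells and 316 and 264 in luminal progenitor cells. Nfkbiz, Tnfaip3, Nfkb1 and Relb each occurred with Nfkbia more often than expected in 4 of 4 libraries in both classes. Rela did so in 4 of 4 libraries in basal cells, with 130 cells observed and 109 expected, but in 2 of 4 in luminal progenitor cells. Nfkbib did not, with 68 observed and 63.5 expected in basal cells and a ratio above 1 in 2 of 4 libraries. In hormone-sensing cells, where the counts were small, Nfkbia and Nfkb1 gave 16 cells observed and 19.5 expected, Nfkbia and Relb 26 and 24.4, and only Rela was above expectation in 4 of 4 libraries, with 14 observed and 9.65 expected. These counts are given without a test because cells of 1 library share a source. Pairs of other genes were not counted, so the excess is not shown to be particular to these genes.

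Target transcripts were likewise more frequent in cells with Nfkbia. In basal cells the 30 targets gave on average 5.38, 6.62, 7.40 and 7.23 UMIs per 1000 in cells with an Nfkbia UMI and 4.26, 5.13, 3.98 and 4.83 in cells without. The ratio of these means was between 1.26 and 1.86 in basal, 1.21 and 1.78 in luminal progenitor and 1.15 and 2.602 in hormone-sensing cells, above 1 in all 4 libraries of each class. For Tnfaip3 it was 1.31 to 1.67 in basal cells, while for Rela it was 0.896 to 1.20. For the immediate early and stress genes the ratio in cells with Nfkbia was 1.06 to 1.34 in basal, 0.846 to 1.19 in luminal progenitor and 0.887 to 1.49 in hormone-sensing cells. It was above the target ratio in the basal cells of both corn oil libraries (1.27 against 1.26, and 1.34 against 1.29) and below it in the other 10 sums, a difference that was not tested. Cells with a Rela UMI had fewer of them in 4 of 4 libraries in both classes (0.65 to 0.844 and 0.604 to 0.968).

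**Figure D4:**
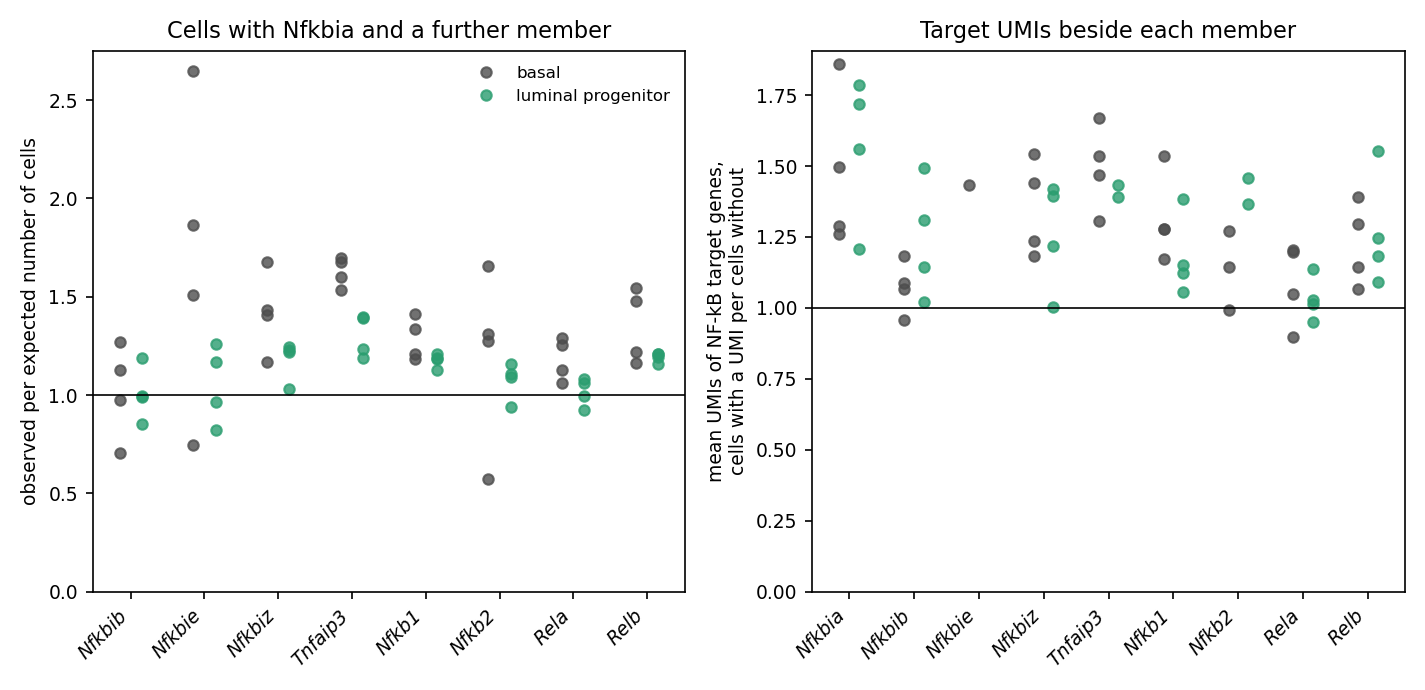
Left, cells with both Nfkbia and a further gene per number expected from independent detection at 1000 UMIs per cell, and right, mean UMIs of 30 NF-kB target genes in cells with a UMI of the gene per mean in cells without, with 1 point per library (at least 20 cells with the gene on the right), basal cells in grey and luminal progenitor cells in green. Tnfaip3 lies between 1.53 and 1.70 on the left in basal cells.

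Over the 12 sums of class and library, the genes whose log2(CPM + 1) was most like that of Nfkbia among 4141 genes were Muc15 (Pearson r = 0.95), Csn3 (0.94) and Ier5 (0.94). Csn3 is a milk protein gene that the class rule used. For Rela they were Smndc1, C3 and Eif5b, from 0.92 to 0.94, and for Relb Phf14, Cxcl1 and Gadd45gip1, from 0.72 to 0.77. Nfkb1 was closest to Rlim, Cyld and Ythdc1, from 0.80 to 0.83, where Cyld encodes a deubiquitinase that also restrains NF-kB. Nfkbiz was closest to Prkci, Katnbl1 and Nsmce2, from 0.95 to 0.96, and Nfkbib to Eif3d, Cfdp1 and Lin37, from 0.84 to 0.89. These correlations describe 12 sums from 4 libraries, which share depth and class structure.

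The comparison of treatments asked whether the 9 genes differed where 4OHT was given. None passed in any class. In basal cells 0 of the 9 genes passed, where 0% of 10788 genes did in edgeR. At an unadjusted p under 0.05, 465 genes (4.31%) and 1 of the 9, Nfkbia, passed, and DESeq2 called 38 genes. In luminal progenitor cells 0 of 9 genes and 0% of 10120 genes passed in edgeR, with 166 genes (1.64%) and no member at an unadjusted p under 0.05, and 1 gene in DESeq2. Among hormone-sensing cells 0 of 9 passed, where 0.0132% of 7589 genes did, which was the gene Ctsr. There 240 genes (3.16%) but no member had an unadjusted p under 0.05, and DESeq2 called 7 genes.

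Nfkbia in basal cells came nearest to a call. Both 4OHT libraries, at 910 and 1005 CPM, stood above both corn oil libraries, at 416 and 660 CPM, and the group means were 957 ± 67.1 and 538 ± 172 CPM (SD, n = 2 each). The log2 fold change was 0.87 (standard error 0.31, edgeR quasi-likelihood test, adjusted p = 0.999). It was positive in all 11 alternatives run, between 0.54 and 1.34, with edgeR or DESeq2 adjusted p-values from 0.0155 to 1.00. The same cells thinned to 1000 UMIs gave 0.44, 0.68, 1.02 and 1.06 Nfkbia UMIs per cell. These values come from the same counts as the CPM and are not separate support. The 25 immediate early and stress genes had a median log2 fold change of 0.32 in the same comparison, with 20 of 25 above 0 and none passing, and Egr1 (1.24) and Fos (1.22) among those with the smallest p. Their part in the Nfkbia difference was not tested.

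The other members differed less in basal cells. Relb had 46.5 and 51.8 CPM in corn oil and 76.6 and 62.7 CPM in 4OHT libraries, a log2 fold change of 0.54 (standard error 0.24, edgeR adjusted p = 0.999). Nfkbia, Nfkbiz, Rela and Relb were the 4 of 9 genes whose 4OHT libraries both lay above both corn oil libraries, where 13% of all genes tested did so. For Nfkbiz and Rela the log2 fold changes were 0.20 and 0.23, smaller than their standard errors of 0.24 and 0.24. Tnfaip3 (0.33, standard error 0.31) and Nfkb1 (0.21, standard error 0.23) were of the size of their errors, and Nfkbib, Nfkbie and Nfkb2 lay within 0.07 of 0. The median of the 9 genes was 0.21 with 8 of 9 above 0, beside a median of −0.02 over all genes tested.

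The luminal classes gave no call among the 9 genes, and Nfkbia differed in sign between them. Nfkbia in luminal progenitor cells gave a log2 fold change of 0.27 (standard error 0.32, edgeR adjusted p = 1.00), with the corn oil libraries at 3882 and 2482 CPM on either side of 4OHT replicate 1. In hormone-sensing cells it gave −0.53 (standard error 0.34, edgeR adjusted p = 1.00), where corn oil replicate 2 alone was high, at 1192 CPM. Without corn oil replicate 2 that value was 0.12. Nfkb1 gave −0.10 in luminal progenitor and −0.58 in hormone-sensing cells (standard errors 0.31 and 0.34, edgeR adjusted p = 1.00 in both). Among the 9 genes, 5 lay above 0 in each luminal class, with medians of 0.03 and 0.03, beside −0.02 and −0.01 over all genes.

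**Figure D5:**
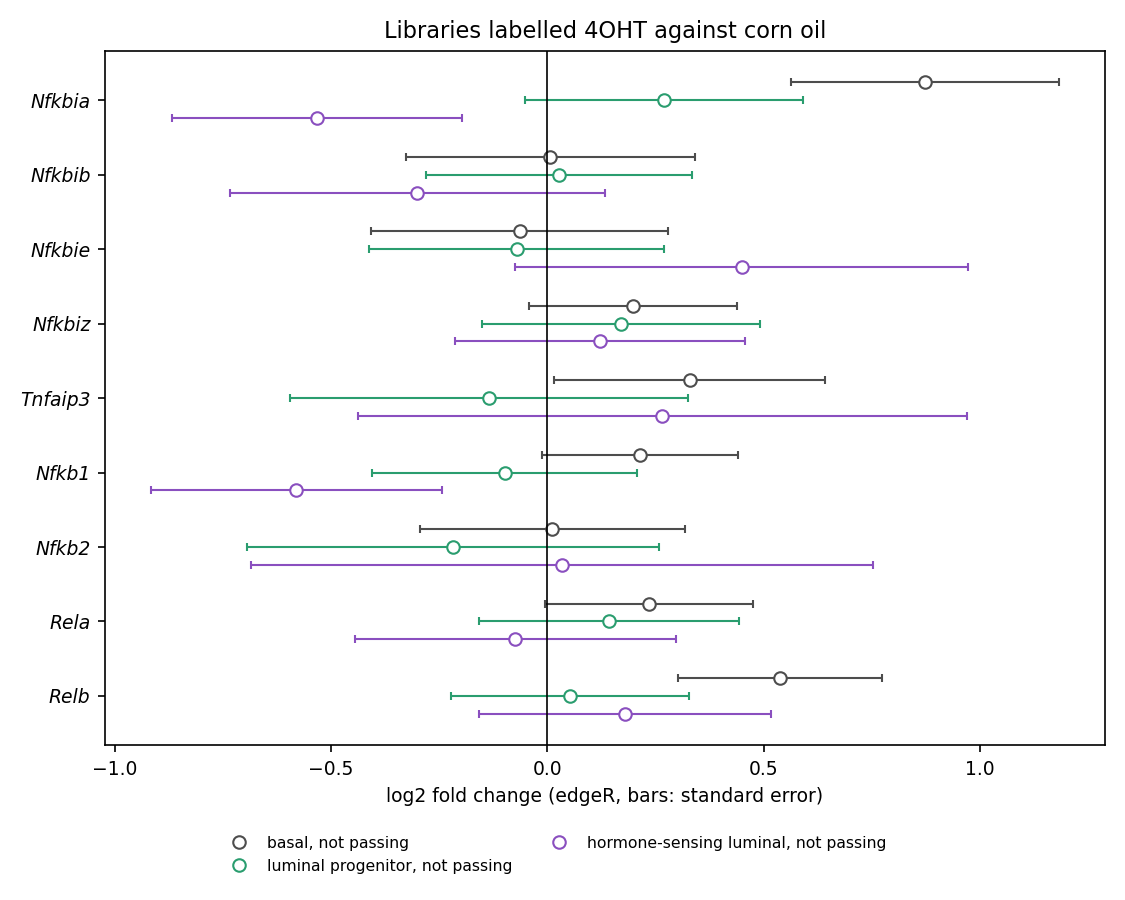
Log2 fold change of each gene in libraries labelled 4OHT against corn oil (x axis, edgeR, 2 libraries against 2), by cell class, with bars for the standard error. All points are open, as none had an adjusted p under 0.05, and in basal cells Nfkbia is at 0.87 and Relb at 0.54.

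Whether the treatment difference itself differed between classes was tested as an interaction. For Nfkbia the difference between basal and luminal progenitor cells was 0.69 on the log2 scale (standard error 0.40, edgeR adjusted p = 1.00), and between hormone-sensing and luminal progenitor cells −0.68 (standard error 0.41, edgeR adjusted p = 1.00). Relb gave 0.48 for the first (standard error 0.32, edgeR adjusted p = 1.00). None of the 9 genes passed in either test, where 0% and 0.00833% of 11998 genes did, with 494 (4.12%) and 459 (3.83%) genes at an unadjusted p under 0.05. Corn oil replicates 1 and 2 pulled the Nfkbia values in opposite directions: without replicate 2 the first was 1.34 (edgeR adjusted p = 0.0344), and without replicate 1 it was −0.16 (edgeR adjusted p = 0.984). The second was −1.66 without replicate 1 (edgeR adjusted p = 0.0499) and 0.21 without replicate 2.

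Related genes did not pass either. Of 25 NF-kB targets tested in basal cells 16 lay above 0 (48.1% of all genes did), with a median log2 fold change of 0.26. At an unadjusted p under 0.05 there were 8 of the 25 in basal cells, where 4.31% of all genes were. There were 5 of 25 in luminal progenitor cells, where 1.64% were, and 0 of 19 in hormone-sensing cells, where 3.16% were. Of the 8 in basal cells, Ccl2 was lower in the 4OHT libraries (log2 fold change −1.15) and the rest were higher. The list was chosen with earlier results of these data known, so these shares are no test of the targets as a set. In basal cells the smallest p were those of Csf3 (1.79), Ptgs2 (1.56) and Ccl5 (2.50), with edgeR adjusted p-values of 0.604, 0.604 and 0.671. In luminal progenitor cells the smallest were those of Cxcl1 (1.33), Cxcl2 (1.27) and Csf3 (1.39), with edgeR adjusted p = 1.00. Rel gave 0.75 in basal cells (edgeR adjusted p = 0.999), from 7.41 and 9.64 CPM in corn oil and 15.5 and 12.4 CPM in 4OHT libraries. In each class, fewer cells with an active gene and less RNA per cell cannot be told apart in these sums.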

How the data were processed

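Gene by cell matrices of UMI counts for 4 libraries were used as deposited. Per the series' design text, the authors mapped transcripts to mm10 (GRCm38.91) with Cell Ranger 3.0.1, and per the submitters' processing notes bcl2fastq made the reads; filters on cells and the strand of counting are not given in the sources used here. Cells were classed as described above, with no doublet caller in the main analysis. The rule leaves out cells of mixed basal and luminal keratins. It does not leave out mixtures of the luminal classes or of epithelial with other cells. Within each class the UMIs of a library were added up, and these sums were tested in edgeR 4.0.16 (R 4.3.3) with the quasi-likelihood test, TMM factors, filterByExpr and Benjamini-Hochberg adjustment over all genes, at a threshold of 0.05. Class comparisons and interactions used the 12 sums in 1 fit with library as a block, and treatment comparisons used the 4 sums of 1 class. CPM were not length-corrected, since a 3′ UMI is counted once per transcript. Shares of cells carry exact 95% intervals. Likeness was Pearson's r of log2(CPM + 1) over genes averaging 20 CPM or more. All 9 genes are described; of the other lists, those that passed and averaged 20 CPM or more were named, at most 4 per direction, or else the 3 with the smallest p.

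The members and gene lists were chosen with earlier results of these data known. Replicates of a group differed by more than sampling noise, with a chi-square per gene of 9.60 to 44.8. Alternatives were DESeq2 1.42.0, median-of-ratios factors, no filter, cells of at least 2000 UMIs, cells with at least 500 genes and at most 10% mitochondrial counts after removal of top Scrublet scores (scanpy 1.11.5), each library left out, the replicate block or no library block, and, chosen after seeing the data, class totals with no TMM factors. The test was tested on simulated data, with changes of log2 size 2 and a spread fixed in advance. The interaction test for basal and luminal progenitor cells recovered 47.5% of 200 changed genes. The other comparisons simulated recovered 84.5 to 98%. The simulated spread was not estimated from these data, so these shares do not give the power of the tests run here. Smaller changes were not simulated.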

Additional observations from a re-analysis of the deposited data

How the results depend on the processing

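Levels of Nfkbie, Tnfaip3 and Nfkb2 in hormone-sensing cells rested on 5 to 32 UMIs a library. Counts of all genes called for 4OHT moved in basal cells from 0 to 93 with no filter, 38 with DESeq2, 167 with the replicate block and 17 to 127 with 1 library left out. In luminal progenitor cells they moved from 0 to 39, 1, 9 and 31 to 64, and in hormone-sensing cells from 1 to 59, 7, 3 and 4 to 80, with 0 for cells of at least 2000 UMIs. Interaction calls moved from 0 to 39 (no filter) and 2 to 12 (1 library left out) for basal cells, and from 1 to 35, 3 (class totals) and 0 to 8 for hormone-sensing cells. Members called lower than in luminal progenitor cells went from 4 to 2 in basal cells on class totals and to 6 with no filter or without corn oil replicate 2 (adding Nfkb1 and Nfkb2), and in hormone-sensing cells from 8 to 4 on class totals, 5 with no library block and 4 to 7 with 1 library left out. Members higher in basal than in hormone-sensing cells went from 2 to 3 with no filter and without either corn oil replicate. The cause was not tested.

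With the replicate block, Nfkbia in basal cells was 0.91 (edgeR adjusted p = 0.0155), and no other member's call changed. Deviations of same-numbered libraries correlated at 0.56, 0.32 and 0.22 in basal, luminal progenitor and hormone-sensing cells, but with 2 pairs the libraries share only a number.

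Small log2 fold changes changed sign. For 4OHT in basal cells, Nfkbib was −0.011 with no filter, −0.040 on class totals and −0.30 to 0.42 with 1 library left out, Nfkb2 −0.013, −0.019 and −0.29 to 0.28, and Nfkbie −0.38 to 0.34 with 1 left out. With 1 library left out, Nfkbia ranged from −0.038 to 0.69 and Nfkb1 from −0.40 to 0.30 in luminal progenitor cells, and Nfkbia from −0.97 to 0.12 in hormone-sensing cells. The Nfkbia interactions ranged from −0.16 to 1.34 and from −1.66 to 0.21. For basal against luminal progenitor cells, Nfkbib was 0.021 on class totals, and Tnfaip3 was −0.0044 with no library block and −0.10 to 0.25 with 1 left out. Nfkbie in hormone-sensing against luminal progenitor cells was 0.19 on class totals and −0.18 to 0.23. For basal against hormone-sensing cells, Relb was 0.023 with no filter and −0.27 to 0.080, Nfkbia 0.0031 with filtered cells and −0.44 to 0.23, Nfkbiz −0.070 to 0.17 and Nfkb2 −0.072 to 0.45.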

Other observations

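The 4007 cells that met the depth minimum but fell in no class were not tested, and their levels are given as values. Nfkbia stood at 526 and 645 CPM in the libraries numbered 1 and at 1041 and 1298 CPM in those numbered 2 (corn oil, then 4OHT). Nfkb2 went the other way, with 23.1 and 22.7 CPM against 16.4 and 9.51 CPM. Rela was 49.2 and 54.4 CPM in the corn oil libraries and 71.9 and 65.8 CPM in the 4OHT libraries, and Relb 42.9 and 51.4 CPM against 67.1 and 66.3 CPM. The ratio of IkB to subunit UMIs in these cells was 2.98, 5.69, 2.95 and 6.44.

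When the class means were removed, the gene closest to Relb over the 12 sums was Birc3 (Pearson r = 0.93). Birc3 encodes an inhibitor of apoptosis and is itself a known NF-kB target. The closest gene was Dot1l for Nfkbia (0.89), S100a1 for Nfkbib (0.95) and Lama3 for Nfkbiz (0.97). For Nfkb1 it was Jmjd1c (0.86) and for Rela Creb5 (0.90). Nfkbia and Nfkbiz, both highest in luminal progenitor cells, had r = 0.78 over the 12 sums and r = −0.04 once the class means were removed. These values describe 12 sums from 4 libraries and carry no test.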
